A study of Homo sapiens with 6 samples.

Results

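Mutually exclusive exons are neighbouring exons of which a transcript normally carries one or the other. The splicing machinery joins a shared upstream 5′ splice site to either exon, and either exon to a shared downstream 3′ splice site. The choice can exchange one stretch of a protein for an alternative version while the rest stays as it is, as in the muscle and embryonic forms of pyruvate kinase. Known means of keeping such exons apart include introns too short to be spliced and competition between the acceptors of both exons for splicing factors. The U2AF heterodimer is one of these factors: its small subunit, U2AF1, contacts the AG at the acceptor.

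The pairs described here were drawn from splice junction counts of K562 cells, a cell line established from a human chronic myeloid leukaemia. The WT group is 3 libraries whose cells had received wild-type U2AF1 by knock-in. The S34F group is 3 libraries of cells with U2AF1 S34F, which has phenylalanine in place of a serine in a zinc finger. All libraries were made from poly(A)-selected RNA and held from 18074706 to 39279169 uniquely mapped spliced reads, S34F replicate 2 being the shallowest and S34F replicate 3 the deepest. The labels do not say whether the libraries of a group came from separate cultures or clones, so p-values measure the spread between these libraries, which may be technical.

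A pair was defined as 2 non-overlapping exons of at most 500 nt that share the same outer 5′ splice site and the same outer 3′ splice site through 4 annotated junctions. Each of the 4 junctions needed at least 10 reads over the 6 libraries, the junction joining both exons had to stay under 5% of the pooled reads of the 4, and every library needed at least 20 reads. Of 5292 exon pairs that share both outer splice sites through junctions of that depth, annotated or not, 3224 had 20 reads in every library, and 247 of these met the whole rule. A further 77 pairs met the rule on annotation and joining but not the minimum per library. The 247 combinations held 240 different exon pairs made of 409 exons at 176 places in the genome, and 137 places held 1 combination. Up to 10 combinations lay at one place, sharing exons and reads, so that they are not independent of each other. The members were chosen by read depth, annotation and the joining junction, pooled over genotypes, and these values are given below as a description. Coordinates are those of hg19, the build named in the submitters' processing notes, and are 1-based. Gene names, acceptor sequences and the marker genes of the cell line were not analysed here, so each pair is named by its chromosome and the lengths of its upstream and downstream exon.

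The 247 pairs differed widely in build. Exons ranged from 14 to 485 nt, with a median of 100 nt for the upstream and 114 nt for the downstream exon. The distance between them was 60 nt or less in 44 pairs, at its shortest 16 nt, and over 1000 nt in 136. No joining read was seen in 92 pairs, including 43 of the 44 closely spaced ones. The junction filters of the alignment are not given. It therefore cannot be told whether joining reads over such short distances could have been recorded. In 18 pairs both exons had exactly the same length, from 71 to 194 nt. In 105 pairs, those 18 included, the lengths differed by a multiple of 3, so that exchanging the exons keeps the distance to the next exon in the same frame. Of the pairs, 11 used a GC-AG or AT-AC type intron at 1 or more of the 4 junctions.

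**Figure D1:**
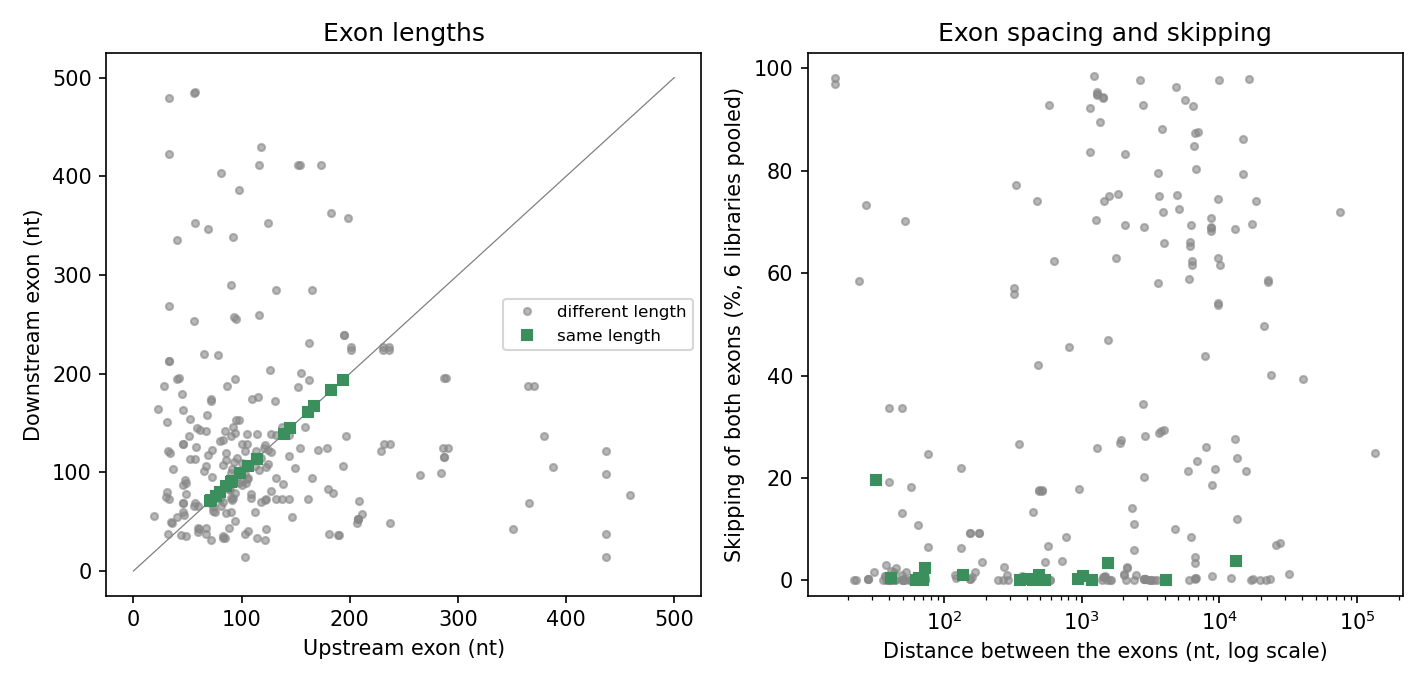
Left, length of the upstream exon against that of the downstream exon, in nt, for the 247 pairs; green squares mark the 18 pairs of equal length, which lie on the diagonal. Right, distance between the exons (nt, log scale) against the percentage of reads that skip both exons, pooled over 6 libraries; 17 of the green squares lie under 4% and the chromosome 16 pair of 114 and 114 nt at 19.6%.

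Sparing use of the joining junction did not mean that one exon of a pair was always taken. The junction from the outer 5′ to the outer 3′ splice site, which leaves out both exons, was set against the mean of the reads on each side of the exons. Skipping of both was over 50% of this total in 70 pairs, under 1% in 96, of which 38 had no skipping read, and in between in 81. The median was 6.74% over the 247 pairs and 0.31% over the 18 pairs of equal length, none of which exceeded 50%. The 70 pairs with more than 50% skipping are alternatives to a transcript with neither exon.

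Reads on the 5′ side of a pair (from the outer 5′ splice site into each exon) and on its 3′ side (from each exon to the outer 3′ splice site) give the share of the upstream exon separately. In WT the share from one side lay within 10 percentage points of the share from the other in 112 pairs, 10 to 30 points away in 46 and over 30 points away in 89. Where the sides disagree, reads into an exon from the outer 5′ splice site and reads from it to the outer 3′ splice site are out of proportion between the exons. In the deepest pair, 28 and 188 nt on chromosome 11, the upstream share in WT was 99.2% on the 5′ side and 0.501% on the 3′ side. Reads from the outer 5′ splice site thus went mostly into the upstream exon, and reads to the outer 3′ splice site came mostly from the downstream one. Whether 1 transcript carries both exons of such a pair through other junctions was not tested. Among pairs of equal length, 14 of 18 had sides within 10 points. The chromosome 5 pair of 90 and 90 nt (chr5:179044022-179044111 and chr5:179043870-179043959) was the exception over 30 points: its upstream share in WT was 99.7% ± 0.23 on the 5′ side and 6.62% ± 1.9 on the 3′ side (mean ± SD, n = 3). The sum of the 4 junctions put that pair at 47.3% in WT and 49.0% in S34F, a value that neither side shows.

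The measure used below is the share of the upstream exon, that is the reads of its 2 junctions as a percentage of the reads of all 4. Where the sides disagree, this share sums unlike values and need not be a choice between the exons. The comparison of S34F with WT asks whether the share differs between the genotypes. The rule did not use this contrast. It was tested with edgeR's quasi-likelihood test in 1 fit over all 3224 exon pairs, with Benjamini-Hochberg adjustment over all of them. A pair was called when its adjusted p was under 0.05 and the group means differed by at least 10 percentage points.

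The share of the upstream exon was called different between S34F and WT in 20 of the 247 mutually exclusive pairs (8.10%), at 19 places in the genome. The upstream exon rose in 12 and fell in 8. Over all 3224 exon pairs 4.19% were called, 2.33% with a higher and 1.86% with a lower upstream share. Without the minimum difference, 46 of the 247 passed the adjusted p, against 9.21% of all pairs, and 80 had an unadjusted p under 0.05, against 22.9%. The 3 S34F libraries lay entirely above the 3 WT libraries in 39 pairs and entirely below in 46, that is in 34.4%, against 26.6% of all pairs. The median difference was -0.08 percentage points, and its median size was 2.75 points, against 2.54 over all pairs. Most pairs therefore differed little, and the calls lay in both directions. The count of 20 depended on single libraries and on the tool: it was 9 without WT replicate 2, 11 without S34F replicate 3 and 13 without S34F replicate 2, DESeq2 called 15, and limma on log2 odds called 0, with 71 of the 247 at an unadjusted p under 0.05. Over all exon pairs, 51 of 3245 were called without WT replicate 2 and 61 of 3224 without S34F replicate 3. Without S34F replicate 2 it was 98 of 3772. DESeq2 called 97 of all 3224 and limma 4. Of the 20 calls among mutually exclusive pairs, 6 held in each of the 6 fits without 1 library.

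**Figure D2:**
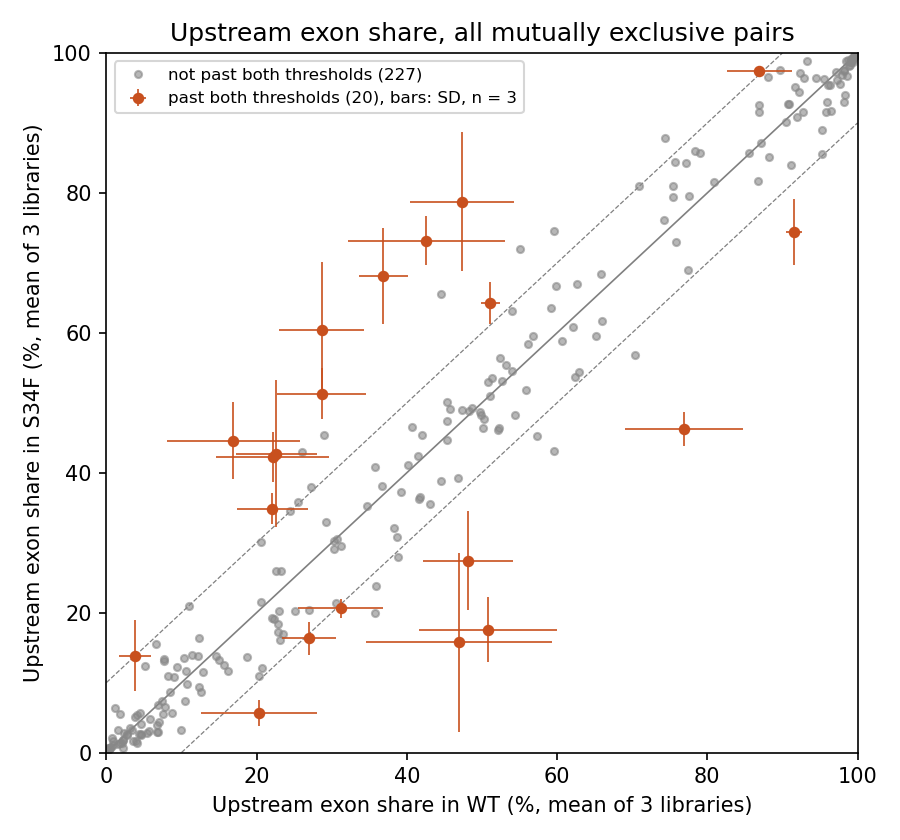
Share of the upstream exon in WT (x axis) and S34F (y axis), in percent, each the mean of 3 libraries, for the 247 pairs. Orange points with SD bars are the 20 called pairs, grey points the other 227, the solid line marks equality and the dashed lines a difference of 10 points; most points lie between the dashed lines, and called pairs lie on both sides.

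The calls were also counted by the build of the pairs, with classes chosen after the calls were seen, so these counts are a description with no test. Among the 105 pairs whose exons differ in length by a multiple of 3, 15 were called, and among the 142 others 5 were. Pairs with a WT share between 10% and 90% held 18 of the 20 calls in 140 pairs. The 107 pairs in which 1 exon dominated in WT held 2 calls. The minimum of 10 points bears on this contrast: by the adjusted p alone 28 of the 140 and 18 of the 107 passed, and 32.1% and 32.7% had an unadjusted p under 0.05. Of the 44 closely spaced pairs 4 were called, all with a higher upstream share in S34F; of the 203 others 16 were, 8 in each direction. Among the 112 pairs whose sides agreed within 10 points, 9 were called, 7 of them with a higher upstream share. The 46 pairs with sides 10 to 30 points apart held 6 calls, and the 89 with sides over 30 points apart held 5.

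**Figure D3:**
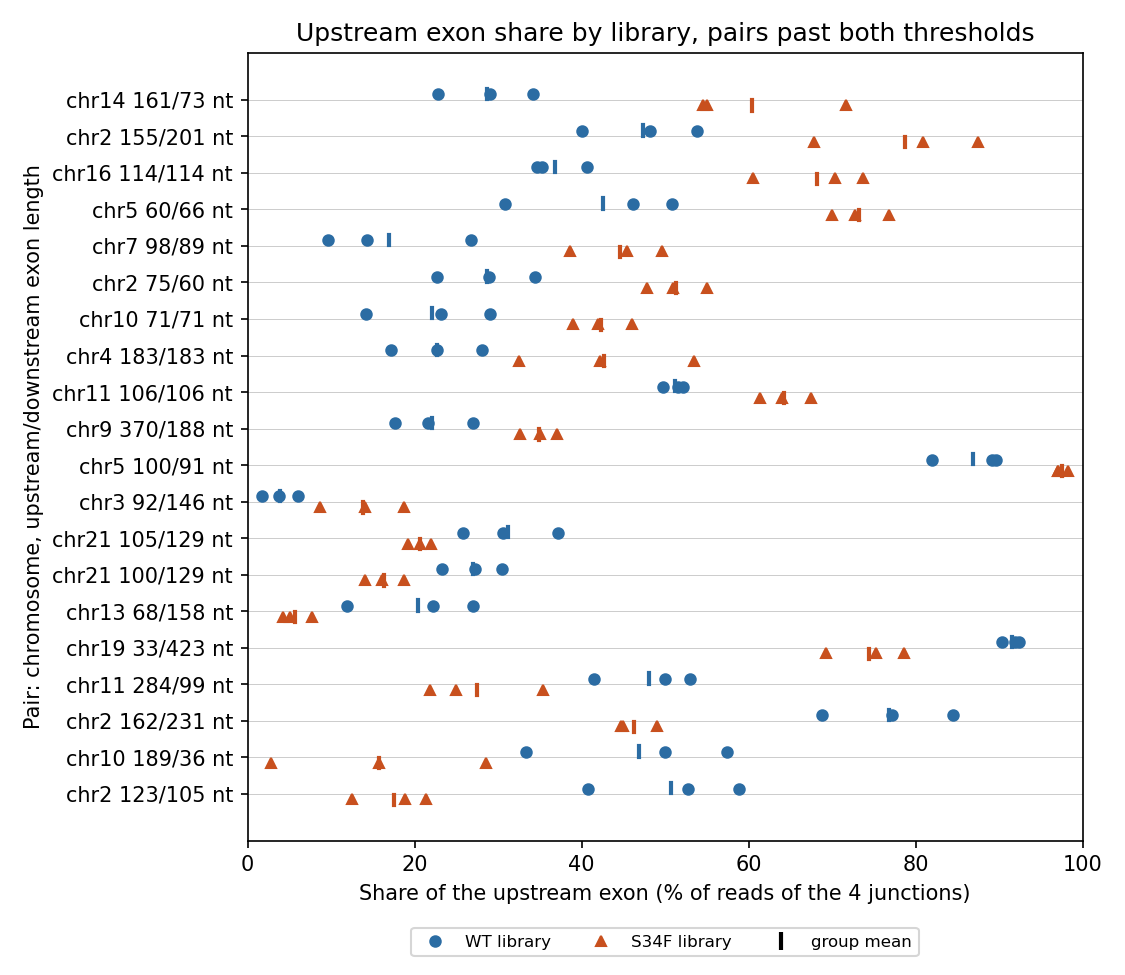
Share of the upstream exon (percent of the reads of the 4 junctions) in each library for the 20 called pairs, named by chromosome and by the lengths of the upstream and downstream exon in nt. Blue circles are the 3 WT and orange triangles the 3 S34F libraries, with vertical ticks at the group means; in each of the 20 pairs the symbols of the groups do not overlap.

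The pairs of equal length came closest to the textbook form of mutually exclusive exons. Of 18 such pairs, 4 were called, all towards the upstream exon, and 10 had an unadjusted p under 0.05. On chromosome 16 (minus strand), exons of 114 and 114 nt (chr16:86585785-86585898 and chr16:86585639-86585752) lie 32 nt apart, and none of the reads joined them. The upstream share was 35.3%, 40.6% and 34.7% in the WT libraries and 70.4%, 73.7% and 60.5% in the S34F libraries. The major exon of the pair thus switched, and no S34F library came near a WT one. The means were 36.9% ± 3.3 and 68.2% ± 6.9 (n = 3 each), a change in log2 odds of 1.78 (SE 0.36, edgeR adjusted p = 0.0104), from 38 to 81 reads per library. This call held without each library in turn.

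A pair of 106 and 106 nt on the minus strand of chromosome 11 (chr11:73429830-73429935 and chr11:73429658-73429763), 66 nt apart, was used almost evenly in WT, at 51.6%, 52.1% and 49.7%. In S34F the upstream exon took 67.5%, 64.0% and 61.4%. Every S34F library was above every WT library, and the WT spread was small. The means rose from 51.1% ± 1.3 to 64.3% ± 3.0 (change in log2 odds 0.77, SE 0.16, adjusted p = 0.0105 by edgeR). It rested on 2746 reads, of which 258 to 767 fell in each library, with 1 joining and 5 skipping reads. Leaving out any 1 library kept the call, but neither side alone passed (edgeR adjusted p = 0.109 on the 5′ side and 0.239 on the 3′ side), although both moved alike, by 14.3 and 11.9 points, and the joint adjustment with cassette exons did not call it.

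On chromosome 10 (minus strand), exons of 71 and 71 nt (chr10:74804739-74804809 and chr10:74803645-74803715) had upstream shares of 29.1%, 23.2% and 14.1% in WT and 38.9%, 41.9% and 46.0% in S34F. The means went from 22.1% ± 7.5 to 42.3% ± 3.5 (change in log2 odds 1.32, SE 0.28, adjusted p = 0.0130 by edgeR). The downstream exon stayed the major one in both genotypes. Without S34F replicate 3 or WT replicate 2 the call was lost, with adjusted p-values up to 0.0616. The fourth called pair of equal length, with exons of 183 and 183 nt on the plus strand of chromosome 4 (chr4:174218946-174219128 and chr4:174219266-174219448), was at 17.2%, 22.7% and 28.1% in WT and at 53.5%, 42.2% and 32.6% in S34F. The S34F libraries spread widely but stayed above WT (means 22.6% ± 5.4 and 42.7% ± 10.5, change in log2 odds 1.34, SE 0.33, adjusted p = 0.0245 by edgeR). That call was lost without S34F replicate 1, S34F replicate 2, WT replicate 1 or WT replicate 2, with adjusted p-values up to 0.0933, and with DESeq2.

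A further 4 pairs of equal length passed the adjusted p with differences under 10 points. The upstream exon rose in the pair of 194 and 194 nt on chromosome 7 (chr7:128394316-128394509 and chr7:128394583-128394776), from 86.9% ± 2.6 to 91.6% ± 0.76 (edgeR adjusted p = 0.0166), and in the pair of 145 and 145 nt on chromosome 10 (chr10:94239034-94239178 and chr10:94238402-94238546), from 88.1% ± 3.2 to 96.6% ± 1.9 (adjusted p = 0.0388). It fell in the pair of 114 and 114 nt on chromosome 2 (chr2:272037-272150 and chr2:272192-272305), from 77.4% ± 5.1 to 68.9% ± 2.2 (edgeR adjusted p = 0.0388), and in the pair of 86 and 86 nt on chromosome 19 (chr19:39200897-39200982 and chr19:39201916-39202001), from 86.7% ± 1.9 to 81.7% ± 1.3 (adjusted p = 0.0324). In all 4 the major exon of WT was still the major exon in S34F.

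The other 10 pairs of equal length did not pass. The deepest of them, 167 and 167 nt on the minus strand of chromosome 15 (chr15:72495363-72495529 and chr15:72494795-72494961), held 17632 reads, of which 4 joined the exons and 16 skipped both. Its upstream exon was minor throughout, at 2.43%, 3.50% and 5.36% in WT and 6.13%, 3.97% and 4.96% in S34F, and the groups overlapped (change in log2 odds 0.54, SE 0.24, adjusted p = 0.195 by edgeR). With 76 and 76 nt, the chromosome 1 pair (chr1:154144505-154144580 and chr1:154143889-154143964) was the other extreme, at 99.7% ± 0.074 in WT and 99.8% ± 0.055 in S34F from 16160 reads (edgeR adjusted p = 0.571). At chr6:42584978-42585076 and chr6:42585147-42585245 (99 and 99 nt), the upstream share was 20.6% ± 4.0 in WT and 21.5% ± 2.3 in S34F (edgeR adjusted p = 0.938). The differences over the 18 pairs ran from -8.45 to 31.3 points. Of the 229 pairs of unequal length, 16 were called (6.99%, against 22.2% of the 18) and 70 had an unadjusted p under 0.05 (30.6%, against 55.6%); the contrast between these classes was not tested.

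Among pairs of unequal length with a higher upstream share, the deepest and most strongly supported was on the minus strand of chromosome 5, with exons of 100 and 91 nt (chr5:134688636-134688735 and chr5:134686513-134686603). Its upstream share was 81.9%, 89.2% and 89.7% in WT and 97.1%, 97.1% and 98.3% in S34F. The downstream exon, a minority in WT, was reduced further in all S34F libraries. The mean rose from 86.9% ± 4.3 to 97.5% ± 0.68 (change in log2 odds 2.65, SE 0.27, adjusted p = 0.000364 by edgeR), from 11266 reads. Both sides gave the same picture, with 87.4% to 97.7% on the 5′ side and 86.5% to 97.3% on the 3′ side. Without WT replicate 1 the adjusted p was 6.1e-05 but the difference was 8.06 points and so under the minimum. A version of the same pair with a downstream exon of 87 nt (chr5:134686517-134686603) moved from 93.2% ± 2.3 to 98.9% ± 0.36 (edgeR adjusted p = 0.000364), sharing the upstream exon's reads.

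The chromosome 5 pair of 60 and 66 nt on the minus strand (chr5:131534014-131534073 and chr5:131533899-131533964) lies 49 nt apart and had no joining read among 1996. Its upstream share was 46.1%, 50.8% and 30.8% in WT and 76.8%, 70.0% and 72.7% in S34F. WT replicate 3 was the lowest of the WT libraries, and the lowest S34F library was still well above the highest WT one. The means rose from 42.6% ± 10.4 to 73.2% ± 3.5 (change in log2 odds 1.87, SE 0.26, adjusted p = 0.00155 by edgeR). Each side passed on its own, by 31.3 points on the 5′ side and 30.2 on the 3′ side, and the call held without each library in turn.

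On chromosome 7 (minus strand), exons of 98 and 89 nt only 23 nt apart (chr7:99264336-99264433 and chr7:99264224-99264312) were joined by no read and skipped by none. The upstream share was 26.8%, 14.3% and 9.68% in WT and 49.6%, 45.5% and 38.7% in S34F. All S34F libraries exceeded all WT libraries (means 16.9% ± 8.9 and 44.6% ± 5.5, change in log2 odds 1.83, SE 0.40, adjusted p = 0.0141 by edgeR), with as few as 31 reads in a library. Without S34F replicate 1 or WT replicate 2 it did not pass, with adjusted p-values up to 0.0879. The fourth closely spaced call, 370 and 188 nt on chromosome 9 (chr9:32987758-32988127 and chr9:32987542-32987729), went from 22.1% ± 4.7 to 34.9% ± 2.2 (change in log2 odds 0.92, SE 0.21, adjusted p = 0.0172 by edgeR). Its sides disagreed: the 5′ side moved from 52.3% ± 11.8 to 81.9% ± 3.7, while the upstream exon took 1.31% ± 1.5 and 2.57% ± 1.5 on the 3′ side. The difference lay in the reads from the outer 5′ splice site, while reads from the upstream exon to the shared 3′ splice site were few in both genotypes. It was lost without S34F replicate 1, S34F replicate 3, WT replicate 2 or WT replicate 3.

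A small rise came from the pair of 92 and 146 nt on the minus strand of chromosome 3 (chr3:25777800-25777891 and chr3:25777495-25777640), at 6.03%, 1.78% and 3.72% in WT and 8.73%, 18.8% and 14.1% in S34F (means 3.84% ± 2.1 and 13.9% ± 5.0, edgeR adjusted p = 0.00997). Its difference of 10.02 points only just met the minimum, and it was not called without S34F replicate 2, S34F replicate 3, WT replicate 2 or WT replicate 3.

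In the 3 other rises both exons were skipped by most transcripts, so that the exchange took place within a minority. The chromosome 14 pair of 161 and 73 nt (chr14:58760484-58760644 and chr14:58759784-58759856) was at 34.1%, 22.9% and 29.0% in WT and 55.0%, 71.7% and 54.5% in S34F (means 28.7% ± 5.7 and 60.4% ± 9.8, change in log2 odds 1.87, SE 0.43, adjusted p = 0.0170 by edgeR). Skipping of both exons was 70.7% ± 1.7 in WT and 54.2% ± 5.7 in S34F. The call was lost without S34F replicate 2, WT replicate 2 or WT replicate 3. For the pair of 75 and 60 nt on chromosome 2 (chr2:228207461-228207535 and chr2:228217230-228217289) the share was 34.4%, 22.6% and 28.9% in WT and 55.1%, 47.8% and 51.0% in S34F (edgeR adjusted p = 0.0224). Its 5′ side moved by 41.4 points and its 3′ side by 10.5, and it was lost without S34F replicate 1, S34F replicate 3, WT replicate 2 or WT replicate 3. The pair of 155 and 201 nt on chromosome 2 (chr2:112237484-112237638 and chr2:112227364-112227564) was the thinnest of all, with 151 reads, 21 to 28 in each library, and 97.8% skipping. Shares of 40.0%, 53.8% and 48.1% in WT and 87.5%, 81.0% and 67.9% in S34F gave an edgeR adjusted p of 0.0399, which was lost whichever library was left out, and with DESeq2. With multi-mapped reads added, its difference was 20.5 points in place of 31.4, and it did not pass (edgeR adjusted p = 0.149).

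The upstream share fell in 8 pairs at 7 places in the genome. Their exons lay at least 132 nt apart, and 5 of the 8 had more than 50% skipping, against 3 of the 12 rises, a difference read off after the calls and not tested. Those 5 include both chromosome 21 combinations described below, which lie at one place and share their skipping reads. The largest fall was on the minus strand of chromosome 2, in exons of 123 and 105 nt (chr2:46818942-46819064 and chr2:46815214-46815318). Its upstream share was 58.8%, 40.7% and 52.7% in WT and 21.4%, 12.5% and 18.8% in S34F. Summed over the 4 junctions, the exons went from equal use to a clear majority of the downstream one. The means were 50.8% ± 9.2 and 17.6% ± 4.6 (change in log2 odds -2.21, SE 0.40, adjusted p = 0.00558 by edgeR). In WT the share from one side lay over 30 points away from the share from the other, so equal use describes the sum only. Both sides fell, by 36.9 points on the 5′ side and by 24.9 on the 3′ side, skipping of both was 73.2% ± 3.0 in WT and 75.5% ± 5.9 in S34F, and the call held without each library.

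A pair of 162 and 231 nt on the plus strand of chromosome 2 (chr2:102477287-102477448 and chr2:102480283-102480513) fell from 68.8%, 77.2% and 84.5% in WT to 49.1%, 44.8% and 45.0% in S34F. The upstream exon lost its majority (means 76.9% ± 7.8 and 46.3% ± 2.4, change in log2 odds -1.94, SE 0.32, adjusted p = 0.00436 by edgeR). Each side passed alone, at -33.5 and -30.7 points, and the call held without each library in turn.

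On the plus strand of chromosome 19, a 33 nt exon (chr19:40871460-40871492) was paired with versions of a downstream exon that differ in their ends. Against the 423 nt version (chr19:40871625-40872047) its share was 91.9%, 92.4% and 90.4% in WT and 69.2%, 78.6% and 75.3% in S34F. Every S34F library was lower (means 91.6% ± 1.1 and 74.4% ± 4.7, change in log2 odds -1.94, SE 0.26, adjusted p = 0.00123 by edgeR), and the call held without each library. Against the 213 nt version (chr19:40871625-40871837), which uses the same acceptor, the share went from 23.1% ± 0.93 to 16.2% ± 2.0 (edgeR adjusted p = 0.0163). The 479 nt version (chr19:40871569-40872047), whose acceptor lies upstream, left the share at 97.3% ± 0.26 in WT and 96.1% ± 1.0 in S34F (edgeR adjusted p = 0.576). Skipping of both exons in the 423 nt combination was 14.1% ± 2.0 in WT and 30.3% ± 13.1 in S34F.

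In the chromosome 13 pair of 68 and 158 nt (minus strand, chr13:73355427-73355494 and chr13:73354984-73355141), the minor upstream exon took 22.2%, 11.9% and 27.0% in WT and 7.75%, 4.20% and 5.05% in S34F (means 20.4% ± 7.7 and 5.66% ± 1.9, change in log2 odds -1.96, SE 0.37, adjusted p = 0.00718 by edgeR). Both sides passed, and skipping was 1.34% in WT and 0.541% in S34F. Without S34F replicate 3 the adjusted p was 0.0558.

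The 4 remaining falls were less firm. The chromosome 11 pair of 284 and 99 nt (chr11:3398847-3399130 and chr11:3394807-3394905) fell from 48.1% ± 6.0 to 27.4% ± 7.1 (edgeR adjusted p = 0.0349), and was lost without S34F replicate 2, S34F replicate 3, WT replicate 1 or WT replicate 2. The chromosome 10 pair of 189 and 36 nt (chr10:35477128-35477316 and chr10:35490379-35490414) was at 33.3%, 57.4% and 50% in WT and 28.6%, 2.86% and 15.8% in S34F (edgeR adjusted p = 0.0495), and was lost without S34F replicate 2, S34F replicate 3, WT replicate 2 or WT replicate 3. Both of these calls were lost with DESeq2 as well. Their sides disagreed in WT, by 61.7 points in the chromosome 11 pair and by 58.9 in the chromosome 10 pair. Their WT shares therefore describe the sum of the 4 junctions only. In the chromosome 11 pair neither side passed alone (edgeR adjusted p = 0.350 for 5′ and 0.144 for 3′). In the chromosome 10 pair the 3′ side passed (edgeR adjusted p = 0.0326) and the 5′ side did not (adjusted p = 0.476). On chromosome 21, upstream exons of 105 nt (chr21:40719305-40719409) and 100 nt (chr21:40719305-40719404), which differ by 5 nt at the acceptor, were paired with the same 129 nt exon (chr21:40717756-40717884). They fell from 31.2% ± 5.7 to 20.6% ± 1.4 (edgeR adjusted p = 0.0240) and from 27.0% ± 3.6 to 16.3% ± 2.4 (edgeR adjusted p = 0.0180). Skipping of both exons took 94.2% and 94.4% of the reads, with 21159 skipping reads, and the combinations share all reads of the 129 nt exon. The 105 nt version held only without WT replicate 3 and was lost with DESeq2, and the 100 nt version only without S34F replicate 3 or WT replicate 3.

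**Figure D4:**
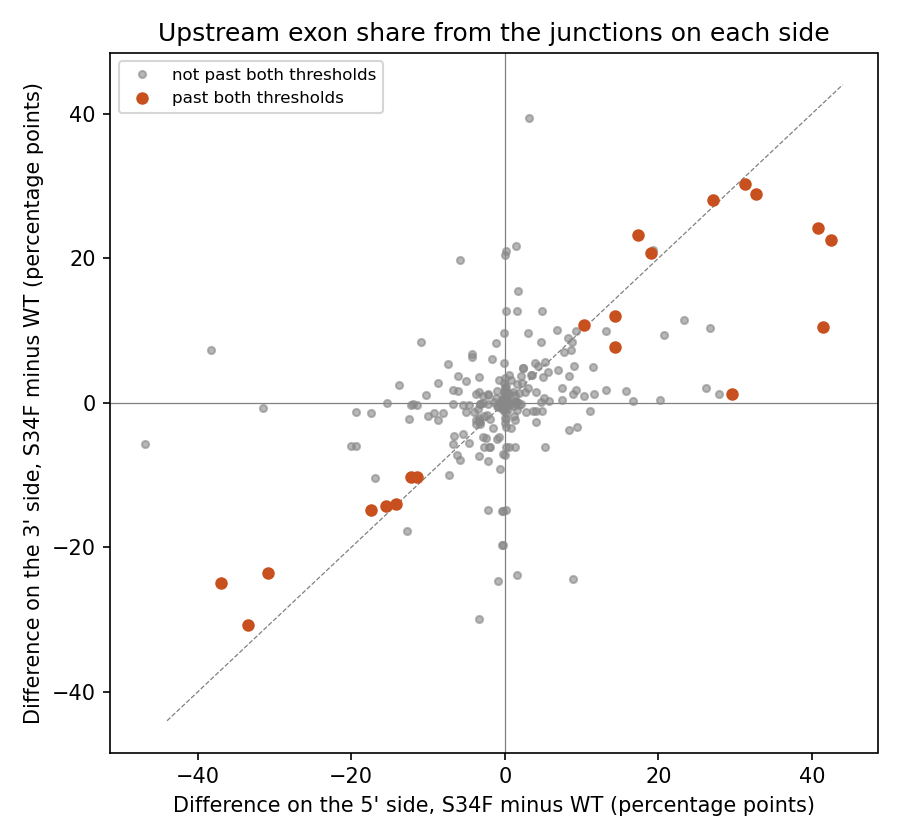
Difference in upstream share (S34F minus WT, percentage points, means of 3 libraries) from the 5′-side junctions (x axis) and from the 3′-side junctions (y axis) for the 247 pairs. Orange points are the 20 called pairs, all in the lower left or upper right quadrant, and the dashed line marks equal differences; several grey points far along one axis moved by more than 20 points on 1 side and by little on the other.

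The 2 sides of each pair were then tested on their own, since they rest on different junctions, although a read that spans a short exon counts on both. The sides moved in the same direction in all 20 called pairs, which is partly set by the call being made on their sum. They did so in 172 of the 247, against 1851 of all 3224 exon pairs. Using the 5′ side alone, 15 of the 247 pairs were called, against 2.79% of all pairs, and 11 of them were among the 20. Using the 3′ side alone, 12 were called, against 2.92% of all pairs, and 9 of them were among the 20. In 5 pairs both sides met both thresholds: 60 and 66 nt and 100 and 91 nt on chromosome 5, 123 and 105 nt and 162 and 231 nt on chromosome 2, and 68 and 158 nt on chromosome 13. Over all 3224 exon pairs, 18 did so. In another 5 of the 20 neither side alone had an adjusted p under 0.05.

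Skipping of both exons was not part of the share. It was lower in S34F by 10 points or more in 21 of the 247 pairs, against 3.32% of all pairs, and higher by as much in 8, against 2.3%. These differences were not tested, and the median difference was 0. All 3224 exon pairs had less skipping that could fall, with a median of 0.62% against 6.74% over the 247. Skipping was under 1% in 1771 of the 3224 and in 96 of the 247. The percentages with lower skipping are therefore not on an equal footing. The largest drop was in the chromosome 10 pair of 189 and 36 nt, from 41.8%, 42.0% and 46.2% in WT to 15.2%, 22.2% and 20.4% in S34F. At chr1:41625397-41625605 and chr1:41617286-41617356 (209 and 71 nt) skipping was 36.9% ± 3.5 in WT and 17.4% ± 0.95 in S34F, while the upstream share was 23.3% and 26.0% (edgeR adjusted p = 0.808). The reverse was seen for 237 and 49 nt on chromosome 1 (chr1:171558508-171558744 and chr1:171560291-171560339), where skipping was 26.8%, 33.0% and 30.7% in WT and 56.1%, 53.2% and 62.5% in S34F. Of these 29 pairs, 6 were among the 20 called for the upstream share, against 8.10% called over all 247 pairs.

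The 10 largest differences that were not called ran from 12.1 to 20.9 points in size and came from 248 to 754 reads per pair. In 7 of the 10 the groups overlapped. The largest, 105 and 93 nt on chromosome 19 (chr19:11342861-11342965 and chr19:11339974-11340066), was at 41.2%, 56.8% and 35.9% in WT and 71.4%, 76.0% and 49.0% in S34F (edgeR adjusted p = 0.221), so that S34F replicate 3 lay below WT replicate 2. The 3 without overlap were 73 and 123 nt on chromosome 11 (chr11:95620776-95620848 and chr11:95615538-95615660), from 55.0% ± 1.4 to 71.9% ± 7.0 (edgeR adjusted p = 0.110), 80 and 73 nt on chromosome 1 (chr1:46060366-46060445 and chr1:46066057-46066129), from 35.7% ± 7.6 to 19.9% ± 6.5 (edgeR adjusted p = 0.0674, and 0.0486 without S34F replicate 1), and 67 and 142 nt on chromosome 8 (chr8:100519365-100519431 and chr8:100519998-100520139), from 74.3% ± 6.3 to 87.8% ± 4.2 (edgeR adjusted p = 0.0760).

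Some differences under the minimum of 10 points also passed the adjusted p. The chromosome 14 pair of 74 and 65 nt (chr14:23300173-23300246 and chr14:23302627-23302691) held 15176 reads, and its upstream exon, a minor one, fell from 2.17%, 1.66% and 2.64% in WT to 0.775%, 0.576% and 0.727% in S34F (change in log2 odds -1.61, SE 0.22, adjusted p = 0.00141 by edgeR). At 124 and 123 nt on chromosome 5 (chr5:138615624-138615747 and chr5:138629142-138629264) the upstream exon fell from 95.2% ± 1.6 to 85.6% ± 1.5 (change in log2 odds -1.77, SE 0.29, adjusted p = 0.00412 by edgeR), a difference of 9.64 points that just missed the minimum. In the chromosome 14 pair the 5′ side carried the difference, from 3.94% ± 0.95 to 1.10% ± 0.066, while the 3′ side was at 0.266% ± 0.031 in WT and 0.283% ± 0.24 in S34F.

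The limit on the joining junction has pairs close to it on either side. Just inside were 109 and 78 nt on chromosome 1 (4.98% joining reads; upstream share 36.7% in WT and 38.2% in S34F) and 98 and 386 nt on chromosome 5 (4.80%; 10.7% and 9.79%). Just outside were 67 and 67 nt on chromosome 21 (chr21:44521476-44521542 and chr21:44520563-44520629), with 5.01%, and 45 and 56 nt on chromosome 7, with 5.02%. The chromosome 21 pair, of equal length, had 20.3% ± 2.5 in WT and 14.2% ± 1.0 in S34F. It passed the adjusted p (edgeR adjusted p = 0.0130), with a fall of less than the minimum of 10 points. The chromosome 7 pair was at 50.03% and 52.4% (edgeR adjusted p = 0.677).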

How the data were processed

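Per the labels' protocols, TruSeq libraries of poly(A)-selected RNA were run on a HiSeq2000 with paired ends. Per the submitters' processing notes, STAR and hg19 were used; versions, annotation and junction filters are not given in the sources used here. The deposited values are raw counts of uniquely mapped and multi-mapped reads per junction and library. The tables were joined into 780566 junctions, with 0 reads for a library whose table did not list a junction. The main values use unique reads.

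Pairs were fitted in edgeR 4.0.16 (R 4.3.3, legacy mode, robust), with 2 counts per library and pair, an intercept per library, the exon, and its interaction with S34F; the intercept removes library size, so no other scaling applies. DESeq2 1.42.0, limma 3.58.1, pandas 2.3.3 and Python 3.11.15 were also used. Standard errors were taken as the size of the coefficient over the root of its F statistic. On simulated counts for the 3224 pairs, 97% of 100 changes of 2 in log2 odds and 100% of 100 changes of 4 passed, with 4 false calls. These rates describe the simulated counts only, and changes smaller than 2 were not simulated. Pairs in the data share exons and reads, and a call also needed a minimum difference in percentage points. The simulation therefore does not give the power or the false calls of the calling rule in the data. A read spanning both junctions of an exon counts for both. Within each group, libraries differed by more than sampling noise (8.53 to 34.6 chi-square per degree of freedom), so none was a copy.

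Named pairs were all called pairs, the 10 largest uncalled differences, and the pairs nearest the joining limit; pairs of equal length, the versions of called pairs and deep pairs with small differences were added after their values were seen. A list of genes with textbook mutually exclusive exons was not used here, since gene names were not analysed. Members and lists were chosen with earlier results of these data known.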

Additional observations from a re-analysis of the deposited data

How the results depend on the processing

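The 20 calls among mutually exclusive pairs became 11 when cassette exons were fitted and adjusted together with the pairs, 12 with at least 50 reads in every library (191 pairs tested), 0 with limma on log2 odds (adjusted p from 0.0613 to 0.192 for the 20), 12 from the 3′-side junctions alone, 12 with a minimum difference of 20 points and 46 with none. They became 13 with a joining limit of 1% (179 pairs), 62 without the annotation requirement (1147 pairs), and 9 among the 112 pairs whose sides agreed within 10 points, an alternative chosen after seeing the data. Leaving out each library gave 9 to 17. The count was 15 with DESeq2, 18 with multi-mapped reads, 21 with edgeR's newer dispersion, 26 with no minimum per library, 18 with exons up to 300 nt and 15 from the 5′-side junctions. Over all exon pairs the 135 calls became 64 with cassette exons, 87 with 50 reads, 4 with limma, 48 with a minimum of 20 points, 297 with none, and 51 to 162 without each library. These 135 became 97 with DESeq2, 123 with multi-mapped reads and 161 with edgeR's newer dispersion. With no minimum per library they were 159 of 5292 pairs, and 94 and 90 came from the 3′-side and 5′-side junctions. With the replicate number as a block, 13 of the 20 were called and 90 pairs in all. Same-numbered libraries did not deviate together (correlations -0.0991, -0.0268 and -0.0278 over 3224 pairs). Many of these pairs have few reads, so the correlations cannot exclude that the numbers pair the samples. None of the 20 called pairs changed direction under an alternative run. Of the 10 largest uncalled differences, 2 did so with the 5′-side junctions alone: 57 and 69 nt on chromosome 11 went from 16.9 to -5.87 points (log2 odds -0.51), and 36 and 49 nt on chromosome 22 from -13.6 to 8.87 points (log2 odds 1.22). The causes of these changes were not tested, apart from the different numbers of pairs tested. Pairs with 20 to 50 reads per library allow only large differences to be seen.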
